A study of Rattus norvegicus with 12 samples.

Results

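Cytochrome P450 enzymes are heme proteins of the endoplasmic reticulum and mitochondria that insert oxygen into fatty acids, sterols, hormones and foreign chemicals, using electrons passed on by a reductase. In the heart, P450 epoxygenases turn arachidonic acid into epoxyeicosatrienoic acids, lipid mediators known for acting on vessels and heart muscle. Epoxide hydrolases open these and other epoxides to diols. Described here are 7 such genes in the rat left ventricle, picked by symbol from 30560 listed genes: Cyp2e1 (ENSRNOG00000012458), Cyp1b1 (ENSRNOG00000040287), Cyp2j4 (ENSRNOG00000031004), Cyp4b1 (ENSRNOG00000055078), Cyp27a1 (ENSRNOG00000017188), Ephx1 (ENSRNOG00000003515) and Ephx2 (ENSRNOG00000017286). Cyp2e1 was included for its fall after infarction, so the comparison of MI with Sham is given for these genes as a description, without a test.

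All hearts came from male Wistar rats operated on at 7 weeks of age. Sham rats (n = 4) had the chest opened without a ligature and received vehicle, 0.5% carboxymethylcellulose. MI rats (n = 4) had the left anterior descending coronary artery permanently tied and received the same vehicle, and MI + UA rats (n = 4) had the same ligation and received urolithin A (UA), a gut microbial metabolite of ellagitannins, by daily gavage for 8 weeks. The gavage solution is given as 50 mg/ml in the study's methods, whose account of dose and start of treatment differs from that of its results section. RNA was taken from fixed, paraffin-embedded sections of 20 µm through the middle of the left ventricle, with no separation of scar from surviving muscle stated, and ribosomal RNA was depleted although the labels name the molecule polyA RNA. Rat 66 carries the surgery and UA label, and was counted as MI + UA, but the study's echocardiography table lists it among vehicle-treated MI rats.

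Libraries held 6228706 to 19031695 reads on genes, and mitochondrially encoded genes took 50.2% to 58.6% of them. Reads on genes made up 47.6% ± 0.611, 44.3% ± 0.705 and 45.9% ± 2.02 of counted reads in Sham, MI and MI + UA (SD, 4 rats each). All MI rats lay below all Sham rats on this share (exact permutation p = 0.0286, two-sided, the lowest p open to 4 against 4), while for MI + UA versus MI the exact permutation p was 0.143. The part of this library difference in the results was not tested. The tissue label matched the data: Ttn and Myh6, which encode sarcomere proteins, held the most reads of 9 cardiomyocyte markers measured. Summed over those 9 markers, normalised read counts ran from 51746 to 58330 CPM (read counts scaled to a common library size by TMM) in Sham, from 36361 to 42739 in MI and from 38239 to 50209 in MI + UA, the last value being that of rat 66. In edgeR's quasi-likelihood test, 8 of the 9 cardiomyocyte markers fell in MI versus Sham at an adjusted p under 0.05, while 6 of 8 fibroblast, 7 of 8 macrophage and 3 of 6 smooth muscle and pericyte markers rose. In the 8 fits that each left out 1 Sham or MI rat, the cardiomyocyte and fibroblast calls all held, but of the others Lyz2 was called in 0 of 8, Cd68 in 4 of 8, and Tagln and Cnn1 in 3 of 8 each, so that of the smooth muscle and pericyte calls only Pdgfrb held in all 8. Of 8 endothelial markers, 1 fell, and 0 of 5 mesothelial markers passed. In MI + UA versus MI, all 9 cardiomyocyte markers were higher by sign and 0 were called. Myh6 was higher in every MI + UA rat than in any MI rat (log2 fold change 0.39, edgeR adjusted p = 0.9998). In bulk tissue, fewer cells of a type and less RNA per cell cannot be told apart.

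The upstream sequences of 3 genes are shown because these genes moved in different directions or differ in their motifs: Cyp2e1, Cyp27a1 and Cyp1b1. Each is the 250 bases before the start site in RefSeq on the GRCr8 assembly, read on the plus strand, at chr1:205269717-205269966, chr9:83713282-83713531 and chr6:21094315-21094564 respectively. Capitals in Cyp2e1 mark a nuclear receptor hexamer (AGGTCA), then the box read as CCAAT on the opposite strand, then the promoter element TATAAA nearest to the start. In Cyp27a1 they mark AGGTCA on either strand, and in Cyp1b1 the core bound by the aryl hydrocarbon receptor (GCGTG) on either strand. Other matches were left in small letters. Cyp27a1 also held CCAAT on the opposite strand, 41 to 37 bases before the start. Cyp1b1 also held a GC box (GGGCGG) on the opposite strand, 89 to 84 bases before the start.
Cyp2e1: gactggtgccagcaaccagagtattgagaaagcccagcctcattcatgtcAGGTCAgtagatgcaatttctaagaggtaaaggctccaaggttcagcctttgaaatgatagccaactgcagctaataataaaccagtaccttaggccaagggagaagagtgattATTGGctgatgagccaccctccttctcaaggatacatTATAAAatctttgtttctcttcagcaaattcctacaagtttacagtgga
Cyp27a1: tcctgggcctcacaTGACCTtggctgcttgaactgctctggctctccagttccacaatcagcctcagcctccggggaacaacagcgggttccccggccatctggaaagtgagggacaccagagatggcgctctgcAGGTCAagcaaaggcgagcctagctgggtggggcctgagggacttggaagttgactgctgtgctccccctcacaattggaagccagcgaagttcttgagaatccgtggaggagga
Cyp1b1: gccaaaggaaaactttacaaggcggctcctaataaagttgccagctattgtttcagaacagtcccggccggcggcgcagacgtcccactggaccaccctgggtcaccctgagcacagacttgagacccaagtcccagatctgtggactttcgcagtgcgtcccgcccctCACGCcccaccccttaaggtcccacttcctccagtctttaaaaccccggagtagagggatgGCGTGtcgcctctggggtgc
The Cyp2e1 window held 0 CG pairs at 42.8% GC, against 13 CG pairs at 59.2% GC in Cyp1b1 and a median of 5 CG pairs at 51.2% GC over 33469 RefSeq windows of that length. Searched on both strands, TATAAA occurred in 12.9% of all windows, AGGTCA in 14.1%, CCAAT in 34.0%, GCGTG in 25.9% and the GC box GGGCGG in 30.5%, and no matches of different motifs overlapped in the genes described here. TATAAA stood 49 to 44 bases before the start in Cyp2e1 and was in none of the other windows of the 6 genes that had an entry in the RefSeq table. A match is a description and not a binding site.

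Cyp2e1, the ethanol-inducible P450 that oxidises ethanol, acetone, small solvents and fatty acids, was far lower in infarcted hearts. Its normalised read count was 26.1, 14.8, 16.0 and 23.3 CPM in the Sham rats, and 2.70, 3.14, 3.94 and 4.56 CPM in the MI rats. Every MI rat was below every Sham rat, and the highest MI value lay well under the lowest Sham value. The MI mean of 3.59 ± 0.8286 CPM (SD, n = 4) was 5.56-fold lower than the Sham mean of 20.1 ± 5.53 CPM (SD, n = 4) in the fit, a log2 fold change of -2.48 (standard error, SE, 0.36). Behind these values were 88 to 186 reads per Sham rat and 20 to 56 reads per MI rat. Among 10930 genes with a symbol and an average log2 CPM of at least 1, this was the fall of rank 1.

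In the MI + UA rats, Cyp2e1 stood at 5.14, 2.95, 4.60 and 10.4 CPM. The highest of them, rat 66, was above every MI rat and below every Sham rat, while the other three lay between 2.95 and 5.14 CPM, among or just above the MI values. The MI + UA group therefore overlapped MI and did not overlap Sham. Against MI, the log2 fold change was 0.76 (SE 0.38, 95% interval -0.075 to 1.59), with 13 of 16 pairs of rats higher in MI + UA, an unadjusted edgeR p of 0.0703 and an adjusted p of 0.9998. This difference rested on rat 66: without it the log2 fold change was 0.27, and with rat 66 counted in MI it turned to -0.26. Rat 66 also had the highest summed cardiomyocyte markers of its group (50209 CPM), the lowest summed fibroblast markers (2205 CPM) and the lowest summed macrophage markers (206 CPM), and the part of tissue makeup in its Cyp2e1 level was not tested.

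Against Sham, Cyp2e1 in MI + UA remained low, with a log2 fold change of -1.72 (SE 0.33, edgeR adjusted p = 0.00742). This comparison brings in rats that the choice of genes did not use, but it shares the Sham rats with the one that it did, as MI + UA versus MI shares the MI rats. Liver and fat are other known sites of Cyp2e1 expression. Of 8 hepatocyte markers, Fgb, Serpina1 and Tat were at 0 counts in all 12 libraries, Alb had 2 counts in all and Ttr had 248. The summed level of the list, most of it from Ttr, was 2.26 to 2.69 CPM in Sham, 1.83 to 3.01 in MI and 2.18 to 3.32 in MI + UA. Of the adipocyte markers, Adipoq had 0 counts over the Sham rats and 30 over the MI rats, 29 of them in MI rat 36. Plin1 had 3 counts over the Sham rats and 19 over the MI rats, 16 of them in 1 rat, Pck1 had 0 and 13, and Cfd had 48 and 73. These counts are not scaled to library size. Once scaled, Cfd averaged 1.70 CPM in Sham and 1.74 CPM in MI (log2 fold change 0.068, edgeR adjusted p = 0.939). The 10 adipocyte markers summed to 1888 to 2067 CPM in Sham, 1333 to 1439 in MI and 1353 to 1629 in MI + UA, nearly all of it from Lpl and Fabp4, which heart muscle and its capillaries also express. Lpl was the 1 of 7 tested adipocyte markers that fell in MI (log2 fold change -0.55, edgeR adjusted p = 1.38e-05). By sign, 5 of the 7 were higher in MI than in Sham (Adipoq, Pck1, Plin1, Slc36a2 and Cfd), none of them past the test, and Lpl and Fabp4 were lower, so the sum does not describe the other markers of the list. Of 3 tested lung epithelium markers, 0 passed. The part of these other cell types in the Cyp2e1 level was not tested.

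**Figure D1:**
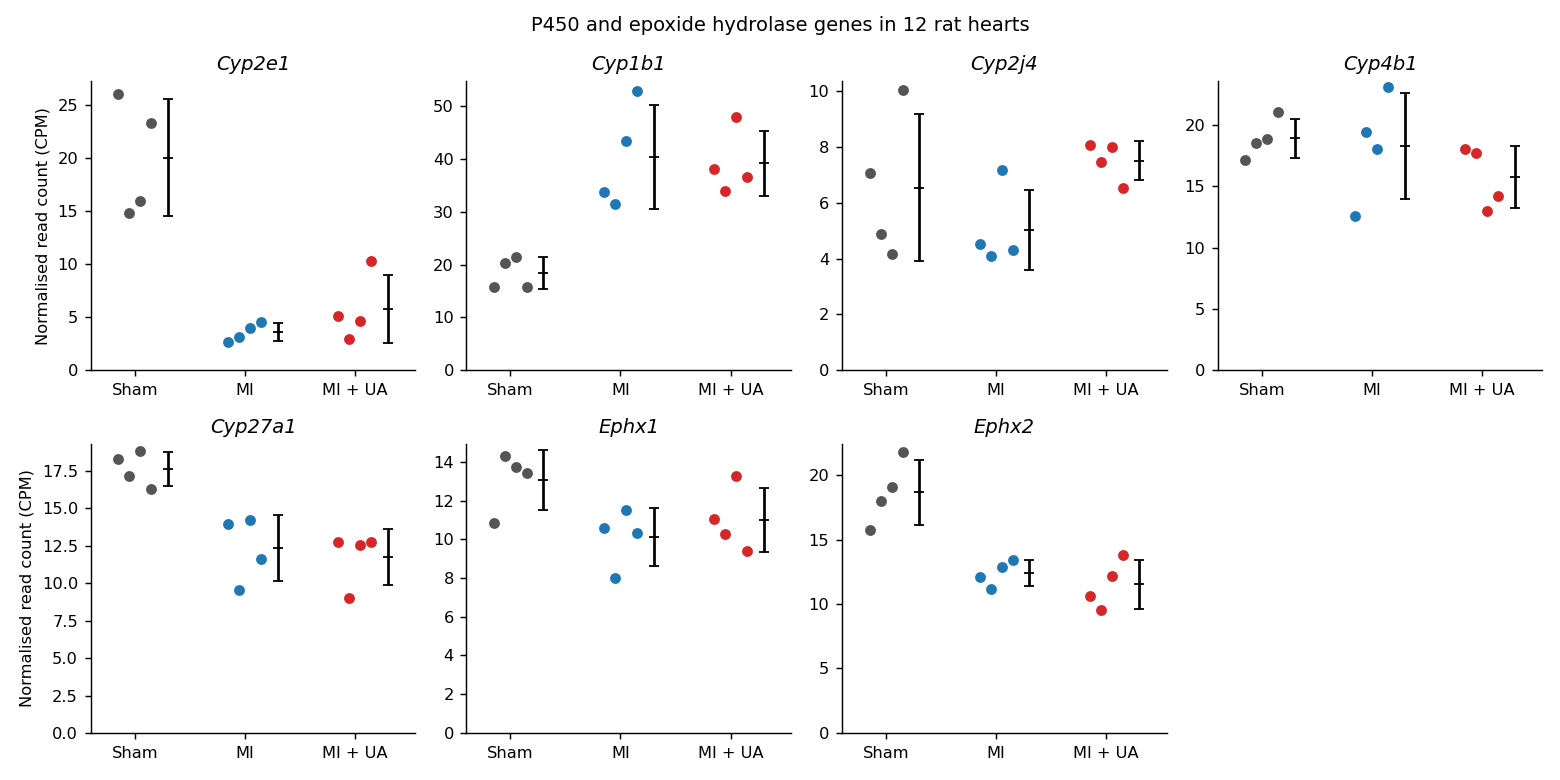
Normalised read counts (CPM, linear axis from 0) of the 7 genes in each rat, as points by group, with the group mean and SD beside them (n = 4). Cyp2e1 fell from 14.8 to 26.1 CPM in Sham to 2.70 to 4.56 CPM in MI, Cyp1b1 was higher in all MI and MI + UA rats than in any Sham rat, and Cyp4b1 overlapped between all groups.

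Cyp2j4 is a rat epoxygenase of the CYP2J family, whose members make epoxyeicosatrienoic acids in heart and intestine. Its normalised read count was 7.07, 4.88, 4.17 and 10.0 CPM in Sham and 4.53, 4.08, 7.16 and 4.32 CPM in MI, so the groups overlapped. The log2 fold change in MI versus Sham was -0.39 (SE 0.23), and -0.089 without Sham rat 12, the highest of its group, or -0.60 without MI rat 61. In MI + UA it was 8.06, 7.45, 7.98 and 6.53 CPM, a narrow group that lay above 3 of the 4 MI rats. Against MI the log2 fold change was 0.57 (SE 0.22, 95% interval 0.11 to 1.03) and 15 of 16 pairs were higher in MI + UA. The unadjusted edgeR p was 0.0168 and the adjusted p 0.9998, in a comparison where 3.45% of all genes had an unadjusted p under 0.05. Unlike that of Cyp2e1, the difference kept its direction with rat 66 counted in MI (0.54). Against Sham, the log2 fold change was 0.19 (SE 0.22, edgeR adjusted p = 0.707). Rat carries several close Cyp2j genes, among which reads can be split, and levels of Cyp2j4 are uncertain to that extent.

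Cyp4b1, a P450 that hydroxylates fatty acids and activates some foreign compounds, showed little difference between the groups. Sham rats held 17.2, 18.5, 18.8 and 21.1 CPM, MI rats 12.6, 19.4, 18.1 and 23.1 CPM, and MI + UA rats 18.1, 17.7, 13.0 and 14.2 CPM. The MI values reached both below and above the whole Sham range. Log2 fold changes were -0.057 in MI versus Sham (SE 0.15; 0.099 without MI rat 36 and -0.20 without MI rat 89), -0.20 in MI + UA versus MI (edgeR adjusted p = 0.9998, 95% interval -0.51 to 0.10) and -0.26 in MI + UA versus Sham (edgeR adjusted p = 0.340, 95% interval -0.57 to 0.053).

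Cyp1b1, a P450 of mesenchymal and vascular cells that metabolises oestrogens, retinoids and polycyclic hydrocarbons, was the only one of the 7 genes higher in MI than in Sham. Its normalised read count was 15.7, 20.4, 21.5 and 15.8 CPM in Sham and 33.7, 31.5, 43.4 and 52.9 CPM in MI. The lowest MI rat was well above the highest Sham rat. The mean went from 18.3 ± 3.00 (SD, n = 4) to 40.4 ± 9.80 CPM (SD, n = 4), a 2.21-fold difference and a log2 fold change of 1.15 (SE 0.17). In MI + UA it was 38.1, 33.9, 47.9 and 36.6 CPM, inside the MI range. Cyp1b1 was thus called higher in MI + UA versus Sham (log2 fold change 1.09, SE 0.17, edgeR adjusted p = 0.000665), and differed by -0.057 from MI (95% interval -0.39 to 0.28). In group ranges, fibroblast markers moved alongside it. Their summed level was 1127 to 1439 CPM in Sham, 2188 to 3574 in MI and 2205 to 3685 in MI + UA. In MI versus Sham, Col3a1 rose by a log2 fold change of 1.45 and Col1a1 by 1.56 (edgeR adjusted p = 0.000909 and 0.00674). Dcn (0.19, adjusted p = 0.333) and Tcf21 (0.52, adjusted p = 0.248) were not called. MI rat 89 was highest of its group on both the sum and Cyp1b1. MI + UA rat 58 had the highest sum of its group and the lowest Cyp1b1. Macrophage markers summed to 121 to 152 CPM in Sham, 246 to 397 in MI and 206 to 424 in MI + UA. The part of these cell types in the Cyp1b1 level was not tested.

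Cyp27a1, the mitochondrial sterol hydroxylase that makes oxysterols from cholesterol, was lower in infarcted hearts. Sham rats held 18.3, 17.2, 18.8 and 16.3 CPM and MI rats 14.0, 9.56, 14.2 and 11.6 CPM, without overlap. The log2 fold change was -0.50 (SE 0.14). MI + UA rats held 12.7, 8.99, 12.6 and 12.8 CPM, again below every Sham rat (log2 fold change -0.57, SE 0.14, edgeR adjusted p = 0.00706) and -0.070 from MI (95% interval -0.35 to 0.21).

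Ephx2 encodes soluble epoxide hydrolase, the enzyme that converts epoxyeicosatrienoic acids to diols. Its normalised read count was 15.7, 18.0, 19.1 and 21.8 CPM in Sham and 12.1, 11.1, 12.9 and 13.4 CPM in MI, and all MI rats were below all Sham rats. The difference was smaller than that of Cyp2e1, -33.5%, with a log2 fold change of -0.59 (SE 0.14). MI + UA rats held 10.6, 9.50, 12.2 and 13.8 CPM, also below every Sham rat, with a log2 fold change of -0.69 against Sham (SE 0.14, edgeR adjusted p = 0.00106) and -0.097 against MI (95% interval -0.38 to 0.18). Ephx1, the microsomal epoxide hydrolase that acts mainly on foreign epoxides, was 10.8, 14.3, 13.7 and 13.4 CPM in Sham and 10.6, 8.00, 11.5 and 10.3 CPM in MI. A single Sham rat brought the groups to overlap, and the log2 fold change was -0.35 (SE 0.15). In MI + UA, Ephx1 was 11.0, 10.3, 13.3 and 9.40 CPM, 0.092 above MI (95% interval -0.21 to 0.39) and -0.26 from Sham on the log2 scale (edgeR adjusted p = 0.310).

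Over the 7 genes, all of which passed the filter of 10 counts, the groups did not overlap at 4 in MI versus Sham, where that holds for 15.7% of all 18182 genes tested and 11.4% had an adjusted p under 0.05 (5.7% higher and 5.65% lower). The genes were chosen on that comparison, and nothing is read from the count. Their median log2 fold change was -0.39, beside 0.026 over all genes. Nothing is read from this difference either, for the same reason. In MI + UA versus Sham, 4 of the 7 were called, 3 lower (Cyp2e1, Cyp27a1, Ephx2) and 1 higher (Cyp1b1), where 9.42% of all genes were called (4.37% lower and 5.05% higher). The Sham rats of this comparison are those on which the genes were chosen, so nothing is read from this count against that share either. Each of these 4 stayed under an adjusted p of 0.05 in all 12 edgeR fits that left out 1 rat (largest adjusted p = 0.0331, for Cyp27a1). In MI + UA versus MI, the groups overlapped at all 7, against 2.34% of all genes without overlap, 0 of the 7 and 0 of all genes (0%) were called by edgeR, 627 genes had an unadjusted p under 0.05, and DESeq2 also called 0. The 3 falls stood beside the lower summed cardiomyocyte markers given above, and the part of tissue makeup in them was not tested.

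**Figure D2:**
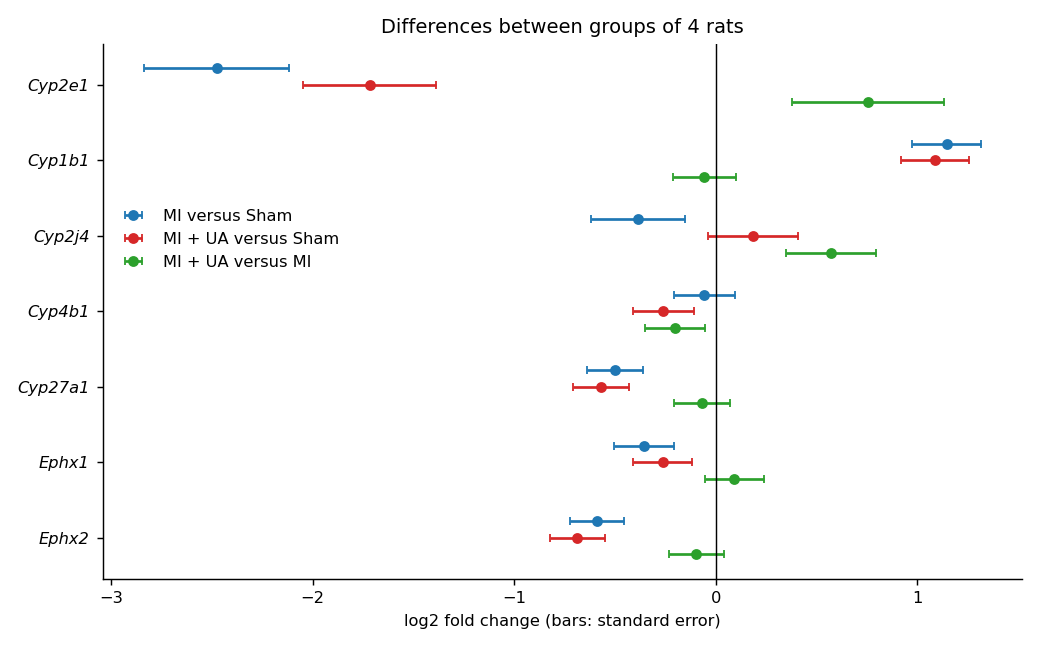
Log2 fold changes of the 7 genes in the 3 comparisons (points, with the standard error as bars, 4 rats per group, from the edgeR fit). Cyp2e1 lies far left in MI versus Sham (-2.48) and MI + UA versus Sham (-1.72), Cyp1b1 lies right in both (1.15 and 1.09), and for MI + UA versus MI the points farthest from 0 are Cyp2e1 (0.76) and Cyp2j4 (0.57).

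The table lists 72 other Cyp genes, of which 41 were under the filter of 10 counts and 31 were tested, 16 of them at a mean of 1 CPM or more. In MI versus Sham, 2 of these 31 were called, both higher, beside 11.4% of all genes, and 5 had an unadjusted p under 0.05, beside 23.6% of all genes. Cyp2r1, a vitamin D hydroxylase of the liver, went from 0.751 ± 0.445 CPM (SD, n = 4) to 1.91 ± 0.460 CPM (SD, n = 4), a log2 fold change of 1.37 (SE 0.42, edgeR adjusted p = 0.0297). Cyp27b1, which makes the active form of vitamin D, had 0 counts in all Sham rats and 12 in the MI rats together, at least 2.79-fold higher when Sham is set to a floor of 3 counts over the group (edgeR adjusted p = 0.0398). These rest on few reads: leaving out Sham rat 38, Sham rat 12 or MI rat 61 left 0 of the 2 calls. The other Cyp genes with the highest mean counts, Cyp4v3 (log2 fold change 0.30), Cyp4f6 (-0.14), Cyp20a1 (-0.29), Cyp51 (-0.35) and Cyp2t1 (0.15), did not pass, with edgeR adjusted p-values of 0.151, 0.679, 0.257, 0.176 and 0.702. In MI + UA versus MI, 0 of the 31 were called, and 0 had an unadjusted p under 0.05. In MI + UA versus Sham, 2 of the 31 were called, both higher, beside 9.42% of all genes. They were Cyp4v3 (log2 fold change 0.46, edgeR adjusted p = 0.0232) and Cyp27b1 (adjusted p = 0.0361).

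**Figure D3:**
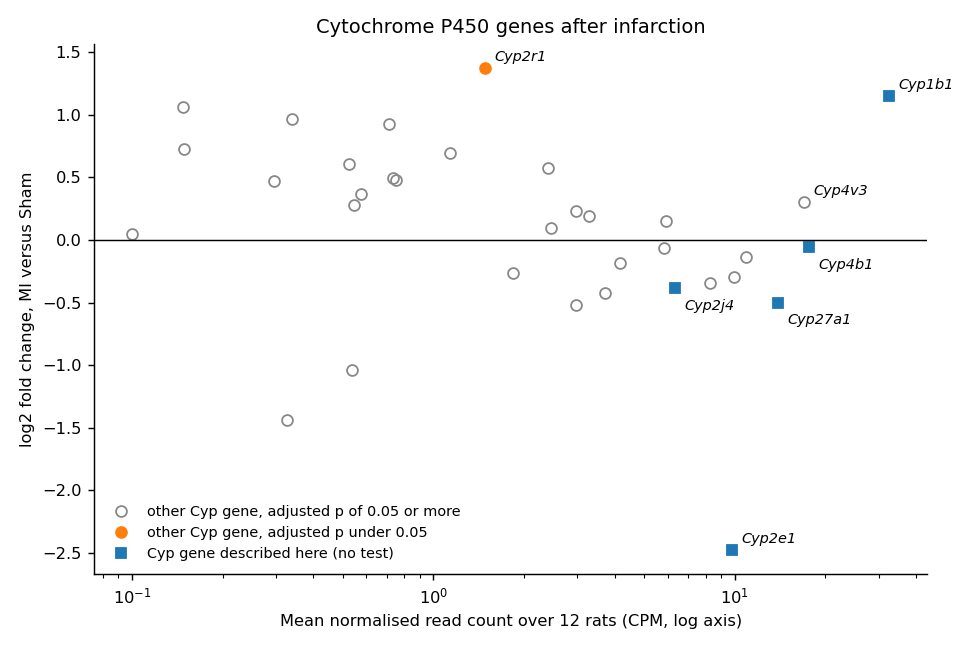
Log2 fold change in MI versus Sham against the mean normalised read count over 12 rats (CPM, log axis, not divided by transcript length) for the 5 Cyp genes described here (squares) and 29 of the 31 other tested Cyp genes (circles, filled where the edgeR adjusted p is under 0.05). Cyp27b1 and Cyp3a9, with 0 counts in Sham, are not drawn, and Cyp2e1 lies lowest at -2.48.

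The steps around these enzymes were described with 7 lists, 113 of whose 128 genes were tested. In MI versus Sham, 25 (22.1%) were called, 13 higher and 12 lower, beside 11.4% of all genes. The lists were chosen with earlier results of these data known, so nothing is read from this share against that of all genes. Of these 25, 10 were called in all 8 edgeR fits that left out 1 Sham or MI rat, and the count fell to 14 without Sham rat 32, Sham rat 38, MI rat 61 or MI rat 89. In MI + UA versus MI, 0 of the 113 were called.

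Among 24 genes of arachidonic acid release and eicosanoid synthesis, 4 rose and 2 fell, with a median of 0.25. Ptgs2, the inducible cyclooxygenase, rose from 1.46 ± 0.320 to 7.33 ± 1.39 CPM (SD, n = 4 each), a log2 fold change of 2.32 (SE 0.23, edgeR adjusted p = 1.27e-07). Pla2g4a, the cytosolic phospholipase that frees arachidonic acid from membranes, rose from 8.32 ± 1.04 to 12.2 ± 1.26 CPM (SD, n = 4 each; log2 fold change 0.54, edgeR adjusted p = 0.0109). Both were called in all 8 fits that left out a rat. Ptgs1, the constitutive cyclooxygenase (log2 fold change 0.76, edgeR adjusted p = 0.0438), and Pla2g15, a lysosomal phospholipase (0.73, adjusted p = 0.0492), were called in 3 and 2 of them. The falls were Ptges2, a prostaglandin E synthase (log2 fold change -0.38, edgeR adjusted p = 0.0309), and Ptgr2, a prostaglandin reductase (-0.35, adjusted p = 0.00484), called in 4 and 8 of the 8 fits. In MI + UA versus MI, Pla2g15 (-0.57) and Ptgs1 (-0.52) had unadjusted edgeR p-values of 0.0175 and 0.0334 with an adjusted p of 0.9998. From other lists, Ch25h (-0.65) and the flavin monooxygenase Fmo5 (-0.63) had unadjusted edgeR p-values of 0.0406 and 0.0474, also with an adjusted p of 0.9998. Over all genes, 3.45% had an unadjusted p under 0.05 there. Of 10 tested eicosanoid receptors 0 were called.

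Of 16 redox partners and heme genes, 2 were called, both lower, with a median of -0.24. They were Fech, the ferrochelatase that inserts iron into heme (log2 fold change -0.36, edgeR adjusted p = 0.00744, 8 of 8 fits), and Hmox2, the constitutive heme oxygenase (-0.32, adjusted p = 0.0434, 3 of 8 fits). Por, the reductase that passes electrons to microsomal P450s, gave a log2 fold change of -0.19 (edgeR adjusted p = 0.322). The 3 other epoxide hydrolases did not pass: Lta4h, which makes a leukotriene, gave 0.070 (edgeR adjusted p = 0.861), Ephx3 gave 0.35 (adjusted p = 0.720) and Ephx4 gave -2.76 at a mean of 0.565 CPM in Sham (adjusted p = 0.0559).

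Of 21 tested regulators of P450 genes, 1 rose and 2 fell, with a median of -0.14. Rxrg, a retinoid X receptor, fell from 54.0 ± 5.45 to 32.8 ± 1.22 CPM (SD, n = 4 each), a log2 fold change of -0.72 (edgeR adjusted p = 2.59e-05, 8 of 8 fits). Nr1i3, the constitutive androstane receptor, fell by 0.40 on the log2 scale (adjusted p = 0.0192, 4 of 8 fits), and Arnt2, a partner of aryl hydrocarbon receptor type factors, rose by 2.29 from 0.304 CPM (adjusted p = 0.0497, 2 of 8 fits). Ahr, the receptor known for inducing Cyp1b1, gave 0.27 (edgeR adjusted p = 0.259) and its partner Arnt 0.031 (adjusted p = 0.878). Ppara, a fatty acid receptor of muscle and liver, gave -0.34 (adjusted p = 0.183) and the stress factor Nfe2l2 0.013 (adjusted p = 0.962). Hnf4a had 2 counts in all and was not tested.

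Genes that handle sterols and oxysterols, the products of Cyp27a1, included 5 of 15 that rose and 0 that fell, with 11 higher and 4 lower by sign and a median of 0.30. Ch25h, which also makes an oxysterol, rose from 1.39 ± 0.724 to 3.89 ± 1.08 CPM (SD, n = 4 each), a log2 fold change of 1.48 (edgeR adjusted p = 0.00424, 8 of 8 fits). Apoe, a lipoprotein component made by macrophages, rose by 1.03 (adjusted p = 0.0190, 5 of 8 fits) and Soat1, which esterifies cholesterol, by 0.70 (adjusted p = 0.000635, 8 of 8 fits). The other calls were Hsd3b7, an enzyme of bile acid synthesis, in 6 of 8 fits, and Abca1, a cholesterol exporter, in 1 of 8, so the count of 5 rests in part on single rats. Macrophage markers rose beside them (7 of 8), and their part was not tested.

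Among 24 alcohol, aldehyde, quinone and conjugating enzymes, 3 rose and 6 fell, with a median of -0.24. Cat, the peroxisomal catalase that can oxidise ethanol, as Cyp2e1 does, fell from 270.0 ± 13.6 to 205 ± 17.5 CPM (SD, n = 4 each), a log2 fold change of -0.39 (edgeR adjusted p = 0.000943, 8 of 8 fits). The largest falls were those of the glutathione transferases Gsta4 (-0.88, adjusted p = 0.0449, 1 of 8 fits), Mgst1 (-0.66, adjusted p = 0.00817, 8 of 8 fits) and Gstm2 (-0.62, adjusted p = 0.00107, 8 of 8 fits). The rises were those of Aldh1a2, which makes retinoic acid (1.06, edgeR adjusted p = 0.0160, 5 of 8 fits), Maoa, a monoamine oxidase (0.68, adjusted p = 0.0346, 5 of 8 fits), and the flavin monooxygenase Fmo2 (0.33, adjusted p = 0.0458, 1 of 8 fits).

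**Figure D4:**
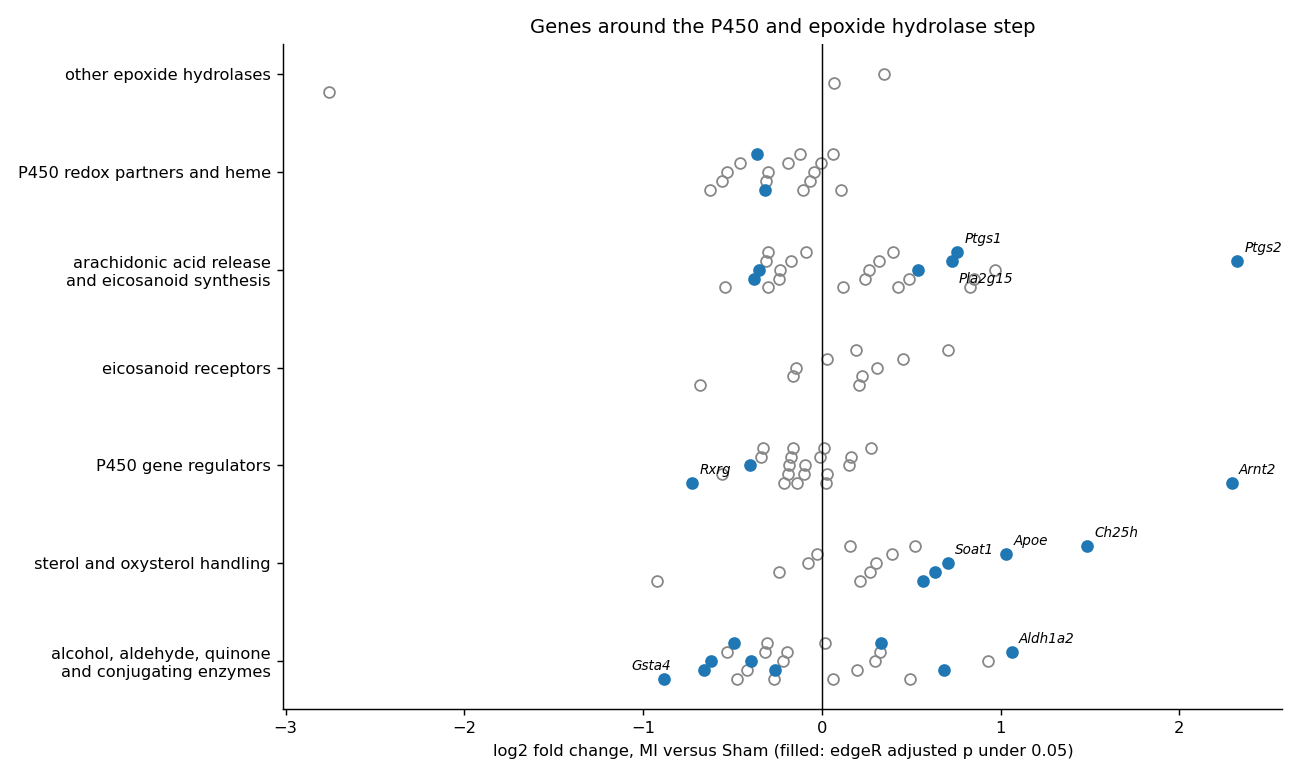
Log2 fold change in MI versus Sham of the 113 tested genes of the 7 lists (1 point per gene, spread vertically for legibility, filled where the edgeR adjusted p is under 0.05, with called genes beyond 0.7 named). Ptgs2 (2.32) and Arnt2 (2.29) lie farthest right among called genes, and all 5 called sterol genes lie right of 0.

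Genes whose pattern was most like that of Cyp2e1 were sought among 10929 genes by Pearson's r of log2 CPM over the 12 rats, as a description without a p. Among the 8 highest were Pdk2, a pyruvate dehydrogenase kinase (r = 0.964), Kcnj3, an atrial potassium channel subunit (0.958), Tpm1, a tropomyosin (0.955), Pygm, muscle glycogen phosphorylase (0.954), Mrpl45 (0.953) and Isoc1 (0.953). Their falls in MI versus Sham, -0.45 to -0.82 on the log2 scale, were smaller than that of Cyp2e1. The points share the difference between groups, so these values largely repeat it. After subtracting each group's mean, the highest were Rbks (0.941), Fbxo28 (0.926), AABR07029581.1 (0.870), Glul (0.868), Kcnj3 (0.863), Slc33a1 (0.837), Prickle1 (0.836) and Pigk (0.834), and Kcnj3 was on both lists. Without rat 66, these 8 stood at 0.639 to 0.958. Of the other genes described here, Ephx2 had the highest r over all rats (0.866, and 0.874 without rat 66), then Cyp27a1 (0.799, and 0.822 without rat 66). After subtracting group means, the order among them rested on rat 66: r was 0.592 for Ephx2, 0.378 for Cyp27a1 and 0.245 for Cyp2j4 with it, and 0.323, 0.310 and 0.568 without it. Cyp1b1 ran opposite over all rats (-0.814) and showed 0.049 within groups (0.198 without rat 66).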

How the data were processed

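The authors mapped read pairs to the rat genome (mRatBN7.2, Ensembl annotation release 108) with STAR 2.6.1c and deposited whole-number htseq-count counts per gene, without normalization. The protocol names a strand-specific library, and the strand setting of the counting is not given in the sources used here. One further MI + UA library, set aside by the authors, was not analysed here. The 5 summary lines of the counter stayed out of library sizes. Groups were taken from the treatment label, with 1 library per rat.

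Counts were scaled by TMM and the 3 groups fitted together with edgeR 4.0.16 (R 4.3.3; quasi-likelihood test with robust estimation). A minimum of 10 reads summed over the libraries left 18182 genes, and p-values were adjusted by Benjamini-Hochberg over all of them, with a threshold of 0.05. The fit was run on simulated counts with known changes, whose outcome is not reported here. The changes were placed in MI only and outside the genes of lowest abundance, so low-count genes were not covered. CPM values used TMM library sizes, and log2 CPM a prior count of 1. Depth limits precision at low counts. No transcript lengths were used, so levels were compared within a gene only. Where a symbol had several rows, the row with the most counts was used.

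The 7 genes, the pathway and marker lists and the tests were chosen with earlier results of these data known, and the genes because of the comparison of MI with Sham. Of other Cyp genes, those called in MI versus Sham and the 5 with the highest mean CPM were named. Of each pathway list, up to 3 called rises and 3 called falls by size were named, with 10 regulators and enzymes whatever their value. Cat, Pla2g4a, Hsd3b7, Abca1 and Fmo5 were named outside this rule. Of cell type markers, the most abundant and those beside a result were named, and for likeness to Cyp2e1 the 8 highest r of each kind. A few genes that these rules name, and 1 motif searched, are not reported here. Percent of counted reads on genes was compared by a two-sided exact permutation test. Alternatives were DESeq2 1.42.0, its size factors within edgeR, scaling without mitochondrially encoded genes, other count filters, a fit of only 2 groups, rat 66 counted in MI, leaving out each rat, and a fit without robust estimation. The last, and likeness to Cyp2e1 without rat 66, were chosen after seeing the data. Listed symbols without a row were not analysed here. Promoter sequences came from RefSeq (GRCr8), a different assembly from that of the counts.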

Additional observations from a re-analysis of the deposited data

Results flagged for a closer look

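In 4 of 51 groups of 4 rats examined, 1 rat lay so far from the other three that its gap to the nearest exceeded Dixon's 95% critical value, where chance flags about 1 in 20 groups. For Cyp27a1, MI + UA rat 58 was lowest, at 3.18 log2 CPM beside 3.66 in the nearest rat (gap 0.958 of the range). For the percent of counted reads on genes, the same rat 58 was lowest in MI + UA, at 42.9% beside 46.7% (gap 0.886), and MI rat 61 was lowest in MI, at 43.3% beside 44.6% (gap 0.853). The summed hepatocyte markers were highest in Sham rat 32, at 2.69 CPM beside 2.31 (gap 0.882).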

How the results depend on the processing

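The falls of Cyp2e1, Cyp27a1 and Ephx2 and the rise of Cyp1b1 in MI + UA versus Sham kept their direction and an adjusted p under 0.05 in all 8 alternatives and all 12 fits that left out 1 rat. These fits use the Sham rats on which the genes were chosen, so they cannot test that choice. When rat 66 was moved to MI, Cyp2e1 shifted on the log2 scale to -1.94 in MI versus Sham and turned to -0.26 in MI + UA versus MI, and Cyp1b1 turned to 0.0049 in MI + UA versus MI. Leaving out 1 rat gave ranges in MI + UA versus MI of 0.27 to 0.94 for Cyp2e1, -0.16 to 0.10 for Cyp1b1 (0.10 without MI rat 89) and -0.16 to 0.025 for Cyp27a1 (0.025 without MI + UA rat 58), so the last pair changed sign. Without robust estimation, the unadjusted p of Cyp2e1 in that comparison was 0.0198, and with DESeq2 0.0202. In MI versus Sham, leaving out 1 rat gave -0.60 to -0.089 for Cyp2j4 and -0.20 to 0.099 for Cyp4b1. The count of called genes in MI + UA versus MI ranged from 0 to 2 when 1 rat was left out, with 2 without MI + UA rat 58. The count of other Cyp genes called in MI versus Sham was 1 with DESeq2, with edgeR's filterByExpr and with only the 2 groups fitted, and 0 to 2 when 1 rat was left out. That of pathway list genes was 14 to 25 when 1 rat was left out. The difference in percent of counted reads on genes between MI + UA and MI was 1.59 percentage points (exact permutation p = 0.143) and ranged from 1.17 to 2.597, the highest (exact permutation p = 0.0286, the smallest possible) without rat 58. The cause of these shifts was not tested. No paired analysis was possible because the replicate numbers were given in accession order and no rat was in more than 1 group. Cyp2e1 rested on 20 to 56 reads per MI rat, which limits its precision there.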

Other observations

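The ratio of Cyp2j4 to Ephx2 counts in the same library, chosen after the values were seen and so given without a test, averaged 0.350 ± 0.123, 0.405 ± 0.104 and 0.667 ± 0.142 in Sham, MI and MI + UA (SD, 4 rats each). The MI + UA rats ran from 0.472 to 0.784 and the MI rats from 0.321 to 0.556, and the groups overlapped. It is a ratio of reads, not divided by transcript length.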
